A study of Mus musculus with 4 samples.

Results

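The 10 genes Id1, Id2, Id3, Id4, Klf4, Myc, Lif, Lifr, Il6st and Sox9 were taken by symbol from the deposited table of 22063 genes, and each symbol matched 1 row. They belong to the BMP-Id and LIF pathways, which are known from the self-renewal of mouse embryonic stem cells, or are transcription factors often measured with them in stem-like tumor cells. ID8 is a line derived from mouse ovarian surface epithelial cells and used as a model of ovarian cancer. The study sequenced polyadenylated RNA from ID8 cells with a control shRNA (shCtrl, labelled WT, 2 libraries) and from ID8 cells with an shRNA against USP9X (shUSP9X, labelled as a USP9X knockdown, 2 libraries), to see how the transcriptome changed when this deubiquitinase was depleted. According to the methods, the study's shRNAs were carried by a puromycin lentiviral vector and ID8 cells were kept in medium with serum. The hairpin these libraries carry, and whether they came from pools or clones, are not given in the sources used here.

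BMP ligands bind paired type I and type II receptors, which phosphorylate Smad1, Smad5 and Smad9. Together with Smad4 these Smads switch on the Id genes, whose small helix-loop-helix proteins bind E proteins and keep them off DNA. LIF binds its receptor LIFR, which pairs with gp130, encoded by Il6st, to activate JAK kinases and STAT3, and in mouse embryonic stem cells Klf4 and Myc lie downstream of STAT3.

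Usp9x, the targeted gene, had 298.1 and 281.6 CPM (counts scaled by the library's effective size) in shCtrl and 19.7 and 20.5 CPM in shUSP9X. Its log2 fold change, given throughout as shUSP9X minus shCtrl, was -3.85 ± 0.06 (SE, n = 2 libraries per group), and between -2.88 and -2.32 in the fits with an offset described next. The libraries held between 15611363 and 19978889 counts. No label says that the replicates came from separate cultures, so p-values measure only the spread between these libraries, which may be technical. In bulk RNA, fewer cells of a type and less RNA per cell cannot be told apart. Over all genes, the log2 fold change rose with the GC content of the transcript (Spearman rho = 0.45 across 11430 genes, which share libraries and are not independent replicates) and fell with its length (rho = -0.33). The 9 tested genes of the 10 are therefore given also from a fit with an offset for GC content and length, and other named genes where that offset ended their call, turned their sign or moved their log2 fold change by over 1.5 times.

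Of the 10 genes, 9 had enough counts to be tested and Id4 had not. With edgeR's quasi-likelihood test and Benjamini-Hochberg adjustment over 11448 genes, 6 of the 9 were lower in shUSP9X (Id1, Id2, Id3, Klf4, Lifr and Il6st), 2 were higher (Myc and Lif), and Sox9 did not pass an adjusted p of 0.05. Among all genes tested, 33.6% were lower and 33.8% higher by the same rule. In all 8 genes called, no shUSP9X library overlapped a shCtrl library, as was so for 41.0% of all genes tested on the lower side and 41.2% on the higher. The median log2 fold change was -0.47 over the 9 genes and -0.00051 over all genes tested. Under the offset these medians were -0.05 and 0.04, so most of the lower median of the 9 genes was not kept. The study's methods set a looser p (0.05, not adjusted) with a fold of 1.5, by which the genes lower were Id3 and Lifr (18.7% of all genes tested) and the genes higher were Myc and Lif (10.8%). With the GC content and length offset, 4 of the 9 were lower (Id1, Id2, Id3 and Klf4) and 4 higher (Myc, Lif, Lifr and Il6st), against 27.5% and 35.8% of all genes.

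**Figure D1:**
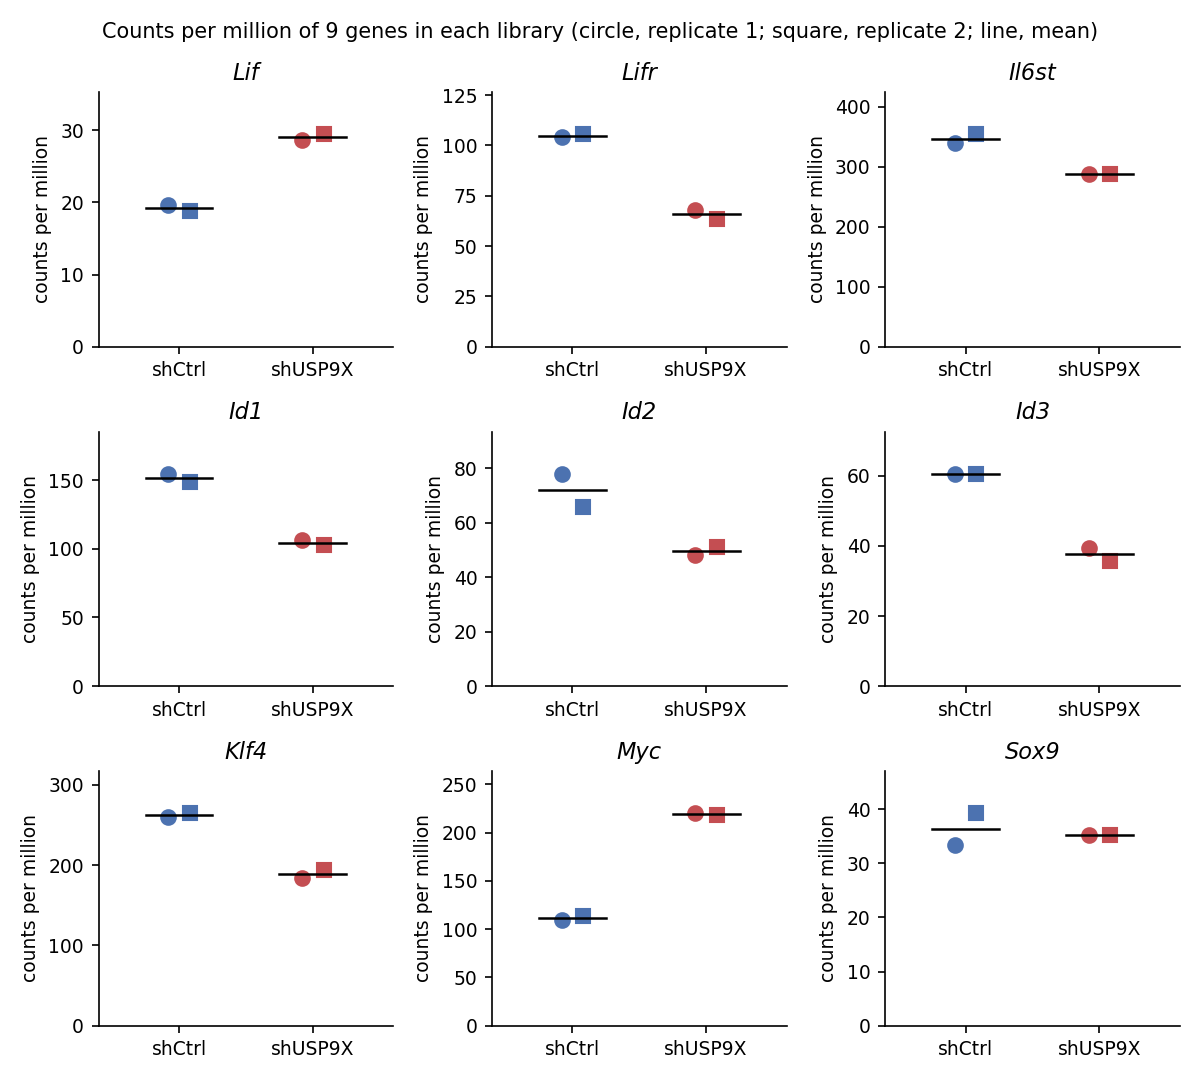
CPM (y axis, from 0) of the 9 tested genes in the shCtrl (blue) and shUSP9X (red) libraries, with circles for replicate 1, squares for replicate 2 and a line at each mean. The groups do not overlap except for Sox9, whose shUSP9X values of 35.3 lie between the shCtrl values of 33.3 and 39.2.

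Lif, the ligand, was higher in shUSP9X. Its gene (ENSMUSG00000034394) lies at chr11:4257557-4272514 on the plus strand of GRCm38. Lif had 19.6 and 18.8 CPM in shCtrl and 28.7 and 29.4 CPM in shUSP9X. Both shUSP9X libraries were above both shCtrl libraries, and replicates differed by less than 1 CPM. Lif rose 1.51-fold (log2 fold change 0.60 ± 0.10 SE, 95% interval 0.40 to 0.80, edgeR adjusted p = 5.81e-06). With the offset the log2 fold change was 0.47 (edgeR adjusted p = 0.00016). These were the lowest counts among the tested genes, between 297 and 568 per library. Without shCtrl replicate 2 the log2 fold change was 0.57, under the fold cutoff of 1.5, which left Myc alone above it.

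Lifr, which encodes the ligand-binding receptor chain, had lower counts in shUSP9X, in the direction opposite to Lif. The gene (ENSMUSG00000054263) lies at chr15:7090614-7197489 on the plus strand. Lifr had 104.0 and 105.5 CPM in shCtrl and 68.1 and 63.3 CPM in shUSP9X. The groups did not overlap, and the gap between them was many times the difference within a group. The log2 fold change was -0.67 ± 0.06 (SE, 95% interval -0.78 to -0.55), a decrease of 1.59-fold with an edgeR adjusted p of 5.17e-11. This call did not hold under the offset: with GC content and the length of the longest annotated coding transcript, the log2 fold change was 0.51 (edgeR adjusted p = 9.49e-09). With the length implied by the deposited counts and FPKM values it was 0.02 (edgeR adjusted p = 0.796), and with GC content alone -0.34 (edgeR adjusted p = 1.63e-05). The annotated transcript has 9655 bases and a GC content of 44.4%, and the length implied by the FPKM values was 5858 bases.

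Il6st, which encodes gp130, the signal-transducing chain shared by LIF, IL-6 and oncostatin M receptors, had the highest CPM of the 10 genes. It (ENSMUSG00000021756) lies at chr13:112464070-112510086 on the plus strand. Il6st had 338.4 and 353.5 CPM in shCtrl and 287.6 and 288.2 CPM in shUSP9X. All 4 libraries were within a narrow range, with both shUSP9X values below both shCtrl values. Il6st fell by 16.8% (log2 fold change -0.26 ± 0.04 SE, 95% interval -0.34 to -0.19, edgeR adjusted p = 8.99e-07), the smallest difference among the 8 genes called. It too turned sign with the offset, to 0.49 (edgeR adjusted p = 5.17e-12), and was 0.21 with the FPKM-implied length and -0.19 with GC content alone. The annotated transcript has 8678 bases, so that Lifr and Il6st have the longest transcripts of the 10 genes.

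**Figure D2:**
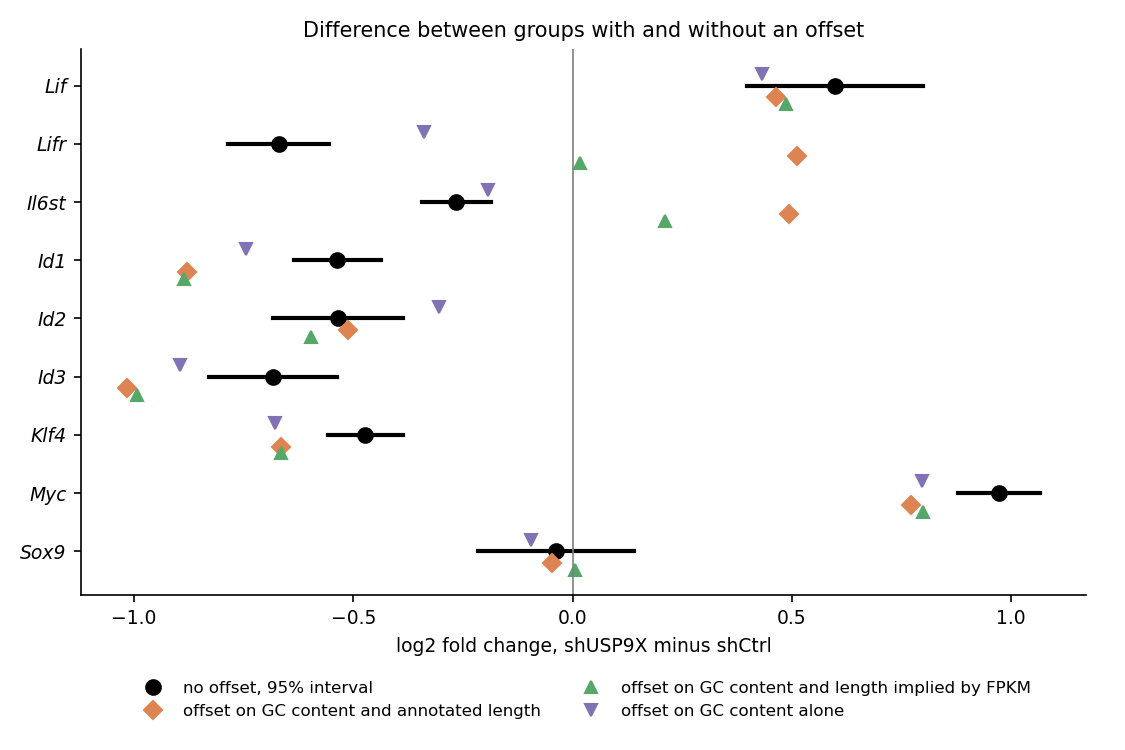
Log2 fold change (x axis, shUSP9X minus shCtrl) of each gene from the fit without an offset (black, with its 95% interval) and from 3 fits with an offset (colored marks). Lifr and Il6st move across 0 with an offset for GC content and length, while Lif, Id1, Id2, Id3, Klf4 and Myc stay on their side in every fit.

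Id1, Id2 and Id3 were lower in shUSP9X by similar proportions. Id1 (ENSMUSG00000042745, chr2:152736251-152737410, plus strand) encodes an inhibitor of differentiation and is a direct target of BMP-activated Smads. It had 154.5 and 148.9 CPM in shCtrl and 106.4 and 102.6 CPM in shUSP9X. The groups were well apart. Id1 fell 1.45-fold, with a log2 fold change of -0.54 ± 0.05 (SE, 95% interval -0.64 to -0.44, edgeR adjusted p = 2.30e-10), and with the offset of -0.88.

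Id2 (ENSMUSG00000020644, chr12:25093799-25097140, minus strand) encodes a second family member that binds E proteins. It had 78.0 and 65.9 CPM in shCtrl and 48.4 and 51.2 CPM in shUSP9X. The shCtrl libraries differed more from each other for Id2 than for the other Id genes, but both stayed above the shUSP9X libraries. The log2 fold change was -0.53 ± 0.07 (SE, 95% interval -0.68 to -0.39, edgeR adjusted p = 3.11e-07), and -0.51 with the offset. It was -0.40 without shCtrl replicate 1 and -0.64 without shCtrl replicate 2.

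Id3 (ENSMUSG00000007872, chr4:136143497-136145755, plus strand) had 60.5 and 60.4 CPM in shCtrl and 39.3 and 35.8 CPM in shUSP9X. The shCtrl libraries were nearly equal and both lay above shUSP9X. Id3 fell 1.61-fold, with a log2 fold change of -0.68 ± 0.07 (SE, 95% interval -0.83 to -0.54, edgeR adjusted p = 3.20e-09), and with the offset of -1.02. Id3 was the Id gene with the largest decrease, though its interval overlapped those of Id1 and Id2, and the differences between the Id genes were not tested.

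Id4 (ENSMUSG00000021379, chr13:48261228-48266026, plus strand) was covered by 2 counts in shCtrl replicate 2 and by 0 counts in the other 3 libraries. These are under the 3 counts taken as the detection floor of a library, so no difference was detectable at this depth and no fold change is given. Of its 3849 annotated exonic bases, 82 and 171 are shared with 2 genes on the opposite strand. No other gene of the 10 shares exonic bases with another annotated gene.

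Per length, Id1 made up most of the Id transcripts in both groups. FPKM (fragments scaled for transcript length and library size) summed over the 4 Id genes was 273.9 and 260.4 in shCtrl and 180.4 and 176.1 in shUSP9X. Id1 held 59.8% and 61.2% of the sum in shCtrl and 62.2% and 61.5% in shUSP9X. Id2 held 22.8% and 20.4%, then 21.0% and 22.7%, and Id3 17.4% and 18.4%, then 16.9% and 15.7%. The sum was lower in both shUSP9X libraries, while the shares of Id1 and Id2 moved little and that of Id3 was slightly lower.

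Promoter sequences were looked up in RefSeq (GRCm38.p6) for these genes because Id2 and Id3 both fell. Entries matched 7 of the 10 genes with 8 windows, all but Id1, Myc and Sox9. In each window the 250 bases before the start were searched on both strands. The letters searched were GGCGCC, a GC-rich element bound by BMP Smads, CAGAC, a Smad-binding element, TTCNNNGAA, the STAT element, CACGTG, the Myc-Max E-box, and TGACGTCA, the cyclic AMP response element. No motif overlapped another in the sequences shown. Of 32851 promoter windows of this length, 9.59% held GGCGCC, 42.2% CAGAC, 7.02% TTCNNNGAA, 6.02% CACGTG and 1.55% TGACGTCA. A match is a description of letters, not of a bound site.

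The sequences below are the Id2, Id3, Klf4, Lif and Lifr stretches that held one of these motifs, read 5′ to 3′ on the gene's strand, with motif letters on either strand in capitals. Only bases outside annotated exons are shown, except for Id3, whose window lies in an annotated exon and is shown as 10 bases on each side of both motifs. They lie at chr12:25096254-25096342 (Id2, minus strand), chr4:136143645-136143669 and chr4:136143744-136143768 (Id3, plus strand), chr4:55532476-55532725 (Klf4, minus strand), chr11:4257318-4257556 (Lif, plus strand) and chr15:7129322-7129558 (Lifr, plus strand).
Id2: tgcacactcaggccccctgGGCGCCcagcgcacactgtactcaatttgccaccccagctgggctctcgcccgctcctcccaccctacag
Id3, first: tcctcggcgtCAGACcagcctaagg
Id3, second: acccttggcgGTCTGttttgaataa
Klf4: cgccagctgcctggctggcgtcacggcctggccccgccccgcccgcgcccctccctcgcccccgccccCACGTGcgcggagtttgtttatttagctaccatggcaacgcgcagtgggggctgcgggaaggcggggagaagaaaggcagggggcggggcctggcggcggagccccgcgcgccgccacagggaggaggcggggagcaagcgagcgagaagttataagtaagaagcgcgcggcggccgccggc
Lif: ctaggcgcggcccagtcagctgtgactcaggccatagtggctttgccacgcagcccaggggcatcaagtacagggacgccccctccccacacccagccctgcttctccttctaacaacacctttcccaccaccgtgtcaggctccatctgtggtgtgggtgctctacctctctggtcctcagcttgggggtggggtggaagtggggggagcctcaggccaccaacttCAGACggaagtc
Lifr: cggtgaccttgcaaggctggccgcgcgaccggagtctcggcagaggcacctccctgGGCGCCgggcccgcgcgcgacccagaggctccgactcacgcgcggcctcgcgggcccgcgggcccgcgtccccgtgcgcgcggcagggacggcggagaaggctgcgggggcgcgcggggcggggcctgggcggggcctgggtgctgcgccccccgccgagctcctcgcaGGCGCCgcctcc

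The Id2 motif begins 231 bases before the RefSeq start, the Id3 motifs 167 and 68 bases before it, the Klf4 E-box 182 bases, the Lif motif 23 bases and the Lifr motifs 194 and 25 bases. The Id2, Id3 and Lifr windows lie inside the GENCODE spans of their genes given above. Their bases are therefore before a RefSeq start but not upstream of the whole annotated gene. Id4 held 1 GGCGCC and the other Lifr window 1 CAGAC. The Il6st window held none of the 5 motifs, and no window of these genes held TTCNNNGAA or TGACGTCA.

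Klf4, a zinc-finger factor that is activated by LIF-STAT3 signaling in embryonic stem cells, was lower in shUSP9X. The gene (ENSMUSG00000003032) lies at chr4:55527143-55532466 on the minus strand. Klf4 had 259.2 and 264.2 CPM in shCtrl and 183.6 and 193.8 CPM in shUSP9X. The groups did not overlap. Klf4 fell by 27.9% (log2 fold change -0.47 ± 0.04 SE, 95% interval -0.56 to -0.39, edgeR adjusted p = 1.66e-10), and the log2 fold change with the offset was -0.67.

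Myc, a helix-loop-helix factor that drives growth and ribosome production, had the largest difference of the 10 genes without an offset. It (ENSMUSG00000022346) lies at chr15:61985391-61990374 on the plus strand. Myc had 109.5 and 113.6 CPM in shCtrl and 219.8 and 218.1 CPM in shUSP9X. Both shUSP9X libraries were nearly double the shCtrl libraries. The increase was 1.96-fold (log2 fold change 0.97 ± 0.05 SE, 95% interval 0.88 to 1.07, edgeR adjusted p = 2.79e-16), and 3.78% of all genes tested had a log2 fold change as high. With the offset the log2 fold change was 0.77, smaller in size than those of Id3 (-1.02) and Id1 (-0.88).

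Sox9, a high-mobility-group factor of progenitor cells, did not pass the test. It (ENSMUSG00000000567) lies at chr11:112782224-112787760 on the plus strand. Sox9 had 33.3 and 39.2 CPM in shCtrl and 35.3 and 35.3 CPM in shUSP9X. The shCtrl libraries lay on either side of the shUSP9X libraries. The log2 fold change was -0.04 ± 0.09 (SE, edgeR adjusted p = 0.719), with a 95% interval of -0.21 to 0.14. Without shCtrl replicate 2, the higher of that pair, it was 0.09 (edgeR adjusted p = 0.42), and with the offset -0.05.

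Compared per length, the order of the genes changed mainly through Myc. In shCtrl, mean FPKM ± SD (n = 2) was 161.6 ± 3.25 for Id1, 90.1 ± 1.41 for Klf4, 57.8 ± 6.49 for Id2, 52.8 ± 2.07 for Myc, 51.0 ± 2.27 for Il6st and 47.8 ± 0.165 for Id3. Lifr followed with 17.1 ± 1.44, Sox9 with 8.86 ± 1.06 and Lif with 4.95 ± 0.207, and Id4 was listed at 0 and 0.033. Id2 overlapped Myc and Myc overlapped Il6st in this order, and the other neighbours did not overlap. In shUSP9X, Id1 remained first with 110.2 ± 2.74 FPKM and Myc was second with 96.4 ± 0.542. Klf4 had 64.0 ± 2.44, Il6st 43.3 ± 0.192, Id2 38.9 ± 1.59, Id3 29.1 ± 1.92, Lifr 11.7 ± 1.24, Sox9 8.44 ± 0.00636 and Lif 7.21 ± 0.0375 FPKM, with no overlap between neighbours. Lif mRNA remained below Lifr and Il6st mRNA in both groups.

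**Figure D3:**
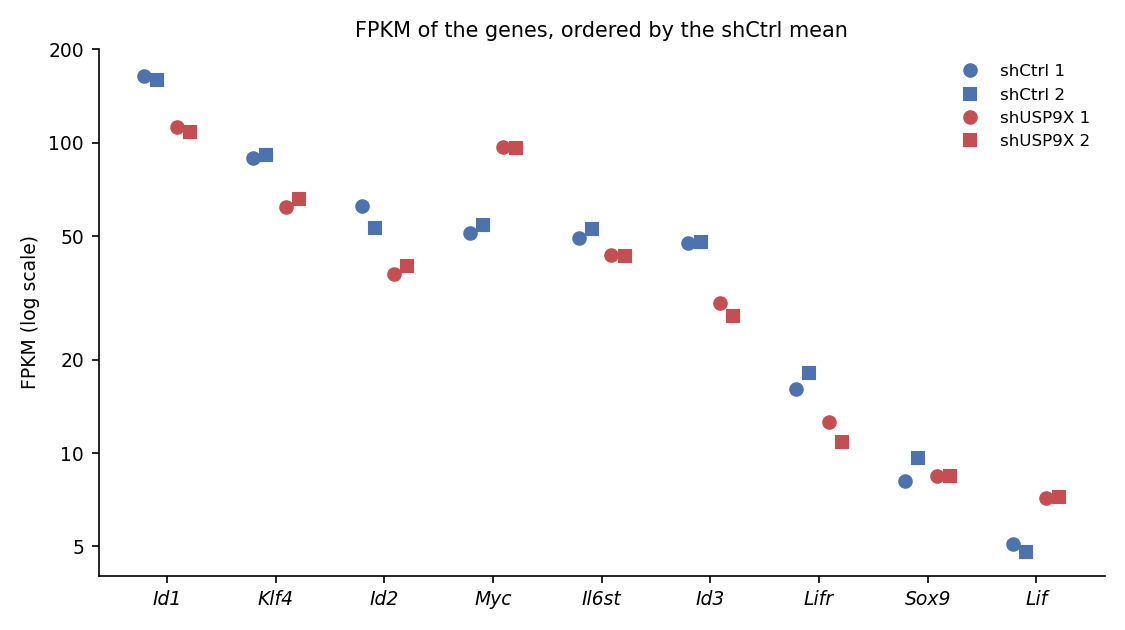
FPKM (y axis, log scale) of each gene in every library, ordered by the shCtrl mean, with Id4 left out because it was listed at 0 or near 0. The shCtrl mean of Myc is below those of Klf4 and Id2, although Myc and Id2 overlap there. In shUSP9X Myc is above both, and Lif is the lowest of the 9 genes in both groups.

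The genes differed in where they lay against genes of similar GC content. Genes were split by the GC content of the transcript into bins of 1143 genes, whose median log2 fold change ran from -0.88 in the bin of lowest GC content to 0.25 between 53.9% and 58.2% GC. Lifr (44.4% GC) and Id2 (45.1% GC) lay in a bin with a median of -0.19, and Il6st (47.4% GC) in a bin with -0.06. Their own values were lower than these medians, as was that of Sox9 (49.3% GC) against a median of 0.06. Id1 (54.7% GC), Id3 (55.6% GC) and Klf4 (54.6% GC) lay where the median was 0.25, and their own values were negative. Myc (53.3% GC) and Lif (53.0% GC) lay where the median was 0.18, and their own values were higher. The part of GC content and length in these differences was not tested.

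**Figure D4:**
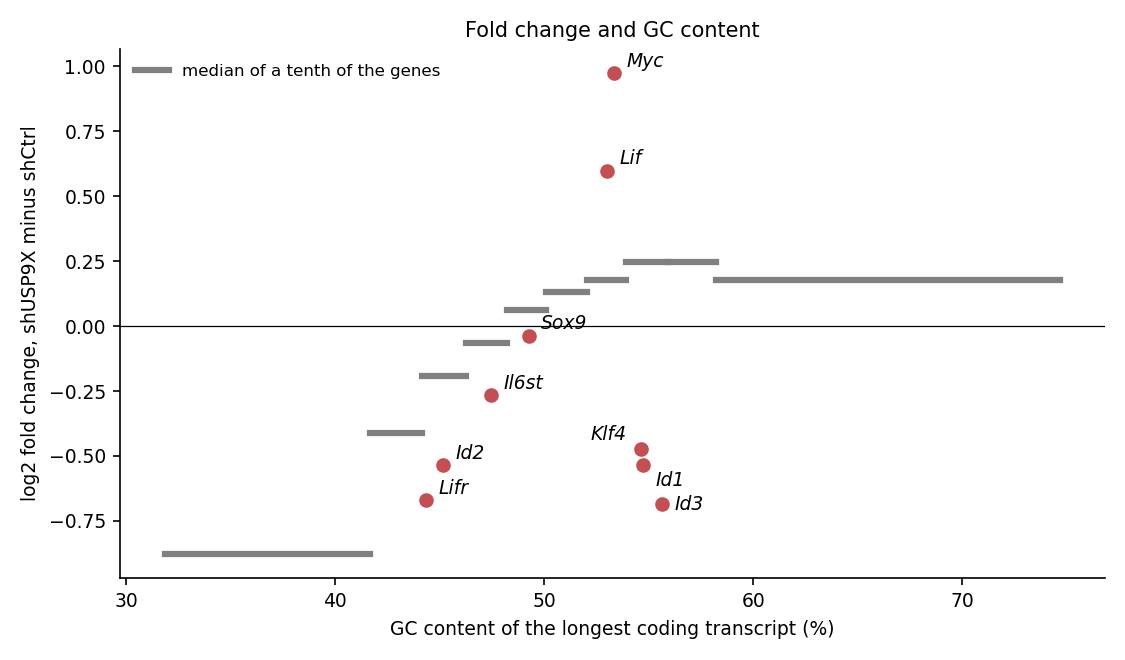
Log2 fold change (y axis, shUSP9X minus shCtrl) against the GC content of the longest coding transcript (x axis, %), with grey bars for the median of each bin of 1143 genes and red points for the 9 genes. Id1, Id2, Id3, Klf4, Lifr, Il6st and Sox9 lie below the bar at their GC content, and Myc and Lif lie above theirs.

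Many BMP ligands and antagonists were at or near 0, and the BMP genes called without the offset were mostly lower. Here and in the lists that follow, counts stand beside 33.6% lower and 33.8% higher of all genes tested. Of 14 BMP ligands, 3 were tested and all 3 fell: Gdf6 (-1.34), Bmp2 (-0.59) and Bmp4 (-0.21), where values in parentheses are log2 fold changes. Bmp4, the most abundant of them, had 123.7 and 123.1 CPM in shCtrl and 107.0 and 106.7 CPM in shUSP9X. Bmp4 was -0.42 with the offset. The Bmp2 call was lost without shCtrl replicate 2 (adjusted p = 0.109, edgeR) or shUSP9X replicate 2 (adjusted p = 0.11, edgeR). Of 8 receptors and co-receptors tested, 3 fell and 1 rose. Bmpr2, the BMP type II receptor, had -1.43, Acvr2a, an activin and BMP type II receptor, -1.22 and Bmpr1a, a type I receptor, -0.60. With the offset these were 0.02, -0.13 and 0.33, so that the first 2 calls ended and Bmpr1a turned sign.

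Of 6 BMP Smads, 4 fell, none rose and Smad1 and Smad4 did not pass. With the offset 3 were lower and 1 higher: Smad5, one of the Smads that BMP receptors phosphorylate, turned from -0.18 to 0.40 (edgeR adjusted p = 2.22e-07). Smad7, an inhibitory Smad that is itself a target of the pathway, had 35.6 and 37.4 CPM in shCtrl and 22.8 and 20.4 CPM in shUSP9X, a log2 fold change of -0.75. Smad9 had -0.56 and Smad6, the other inhibitory Smad, -0.19. Without shUSP9X replicate 1 only 1 of the 6 remained called, and without shUSP9X replicate 2 only 2. The Smad9 call was lost with the offset (-0.40, adjusted p = 0.0897 by edgeR) and without shCtrl replicate 1 or either shUSP9X replicate. Smad6 was -0.08 without shCtrl replicate 2 (adjusted p = 0.457 by edgeR), and -0.30 with the offset. Of 4 tested BMP target genes outside the Id family, Smad7, Smad6 and Atoh8 (-0.67) fell. Secreted antagonists also fell, in 5 of 7 tested, led by Grem1 (-1.51), Chrd (-1.33) and Fst (-1.02). The list medians were -0.59 for ligands, -0.36 for receptors, -0.19 for Smads, -0.43 for target genes and -0.27 for antagonists, beside -0.00051 over all genes tested. With the offset they were, in the same order, -0.73, -0.04, -0.21, -0.55 and -0.47, beside 0.04 over all genes tested.

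Id proteins act by binding E proteins, of which 2 of 3 were called. Tcf4 (-1.24) and Tcf12 (-0.48) fell, while Tcf3, which encodes E12 and E47, had 0.11 (edgeR adjusted p = 0.169). With the offset none of the 3 was called, at 0.07, 0.09 and 0.01. Without shCtrl replicate 2 Tcf3 was called higher, at 0.25. Of the E-protein targets tested, the cell-cycle inhibitor Cdkn1a rose (0.55, and 0.30 with the offset) and Cdkn1b fell (-0.75, and -0.24 with the offset).

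Around Lif, Lifr and Il6st, other receptors and kinases of the pathway were mixed. Of the other IL-6 family cytokines, 2 of 8 were tested, and Clcf1 (-0.15) fell by a margin that was lost without shCtrl replicate 1 (adjusted p = 0.144, edgeR), shCtrl replicate 2 (adjusted p = 0.0573) or shUSP9X replicate 1 (adjusted p = 0.462). With the offset Clcf1 was -0.44. Osmr, the oncostatin M receptor that also pairs with gp130, had 189.1 and 188.2 CPM in shCtrl and 103.0 and 108.3 CPM in shUSP9X. Its log2 fold change was -0.84, and -0.52 with the offset. Of the 3 other gp130-family receptors tested, Osmr alone was called without the offset, and with it 2 were lower and 1 higher.

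Of 10 genes of JAK-STAT3 signaling, 4 fell and 2 rose. Jak2 fell (-1.29, and -0.86 with the offset) and Jak1, the kinase that acts with gp130, fell less (-0.32, and -0.18 with the offset). Stat3 had 159.9 and 170.0 CPM in shCtrl and 175.8 and 171.4 CPM in shUSP9X, a difference of 0.07 on the log2 scale (adjusted p = 0.153 by edgeR). The Stat3 groups were close to each other, and without shCtrl replicate 2 the value was 0.12 (edgeR adjusted p = 0.0175). Ptpn2, a phosphatase of the pathway, had -0.42 and turned to 0.42 with the offset. Socs1, an inhibitor of JAK kinases, rose (0.89) at 1.04 to 2.55 CPM, and its call was lost without shCtrl replicate 1, shUSP9X replicate 1 or shUSP9X replicate 2, and with the offset (adjusted p = 0.0726 by edgeR).

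Of 10 tested STAT3 target genes, 6 rose and 3 fell. Fosl1, an AP-1 subunit, rose most (1.99), from 21.8 and 25.3 CPM to 89.6 and 98.2 CPM. Tfcp2l1, a factor of naive pluripotent cells, rose (0.92), from 35.1 and 34.7 CPM to 68.7 and 63.3 CPM, and with the offset its log2 fold change was 1.91. Pim1, a kinase, fell (-0.77). The list median was 0.26, and 0.13 with the offset. Of 13 other pluripotency factors, 4 were tested, of which 3 rose (Tfcp2l1, Klf5 and Lin28a) and 1 fell (Klf2). A further 6 had 0 counts in every library, Pou5f1 and Sox2 among them. Klf5, named after its values were seen, rose (0.35) from 38.6 and 39.1 CPM in shCtrl to 50.2 and 49.0 CPM in shUSP9X. Besides Tfcp2l1, Lin28a rose (2.37) at no more than 1.25 CPM in any library, a call lost without shUSP9X replicate 2 (adjusted p = 0.119, edgeR), and Klf2 fell (-0.91), a call lost without shCtrl replicate 1 or shUSP9X replicate 1.

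Of 10 other Klf genes tested, 7 fell and 2 rose, and the list median was -0.42, and -0.21 with the offset. Klf7 (-1.41, and -0.80 with the offset), Klf9 (-1.14) and Klf2 (-0.91) fell most. In the rest of the Sox family 4 of 6 tested fell, led by Sox6 (-2.77), Sox8 (-1.98) and Sox5 (-1.27, and -0.65 with the offset). The differences between Sox9 and these genes were not tested. Of 9 Sox9 target genes of cartilage, 1 was tested and it did not pass.

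Partners of Myc were called in both directions, and more of the genes that Myc is known to activate rose than fell. Of 10 other genes of the Myc-Max network tested, 3 fell, 3 rose and 4 did not pass, near the shares over all genes. With the offset 3 were lower and 3 higher. Max, the obligate partner, had 45.2 and 49.2 CPM in shCtrl and 64.9 and 65.5 CPM in shUSP9X, and rose (0.47). Mga (-2.43) and Mxd4 (-1.34), which encode proteins that compete for Max, fell, and Mlx (0.50), a Max-like protein, rose. With the offset Mga was -1.08, Max 0.25 and Mlx 0.27, and Mxd4 also kept its direction. Of 18 Myc target genes, 11 rose and 6 fell, with a median of 0.55. Polr1b, an RNA polymerase I subunit, rose (1.05), as did Srm, the spermidine synthase (1.01). Nop58, a nucleolar protein, fell (-1.03) but turned to 0.41 with the offset, under which 16 of the 18 rose and 2 fell.

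**Figure D5:**
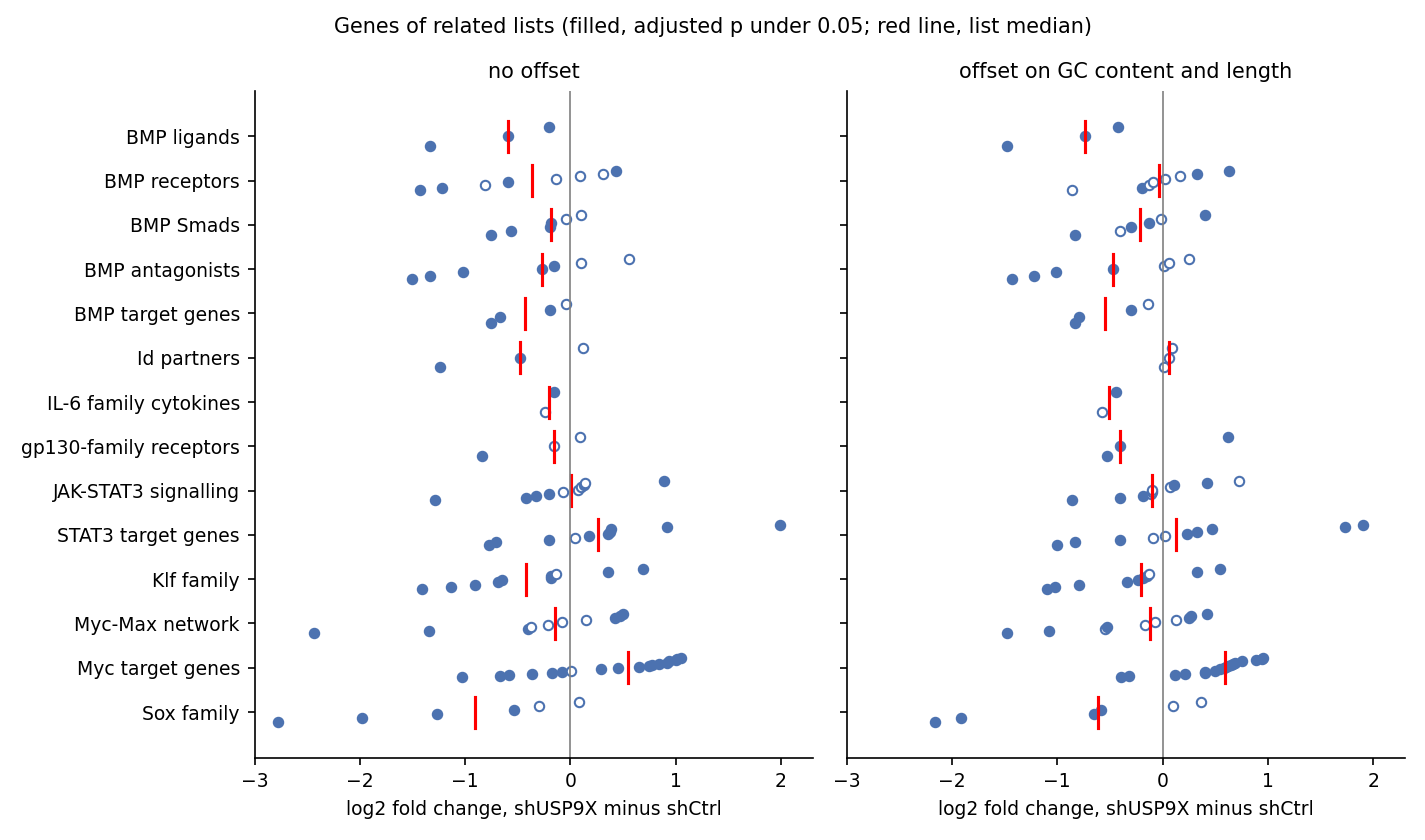
Log2 fold change (x axis, shUSP9X minus shCtrl) of each tested gene in 14 related lists, without (left) and with (right) the GC content and length offset, filled where the edgeR adjusted p was under 0.05, with a red line at the list median. BMP ligands and target genes stay below 0 on both sides, and Id partners move to 0 with the offset. More Myc target genes are called higher with the offset (16 against 11), while their median is 0.59 against 0.55.

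Markers of the line's own origin and of other cells differed between the groups. Of 11 ovarian surface epithelium and mesothelium markers, 9 were tested, of which 4 rose and 3 fell, and with the offset 3 were higher and 5 lower. Krt8 and Upk1b rose, and Lrrn4 fell (a call lost without shCtrl replicate 1 or either shUSP9X replicate). Msln (-0.47, and -0.73 with the offset) and Wt1 (-0.52), named after their values were seen, also fell. The markers summed to 2566 and 2596 CPM in shCtrl and 3020 and 2971 CPM in shUSP9X. This sum joins markers that moved in opposite directions. Mean CPM rose from 318.8 to 602.1 for Krt8, and fell from 482.6 to 349.1 for Msln and from 365.4 to 254.5 for Wt1. Krt18, also named after its values were seen, rose from 381.4 to 596.4 (0.64, and 0.33 with the offset). Krt7 and Epcam were near 0. Of 7 fibroblast markers, 3 were tested and fell (Pdgfra, Col1a1 and Dcn), with sums of 251.8 and 258.9 CPM against 147.7 and 145.1 CPM, and 3 had 0 counts in every library. Dcn had -0.46, and -0.22 with the offset. Of 9 leukocyte markers, 5 were tested and 4 rose, from sums of 4.27 and 4.36 CPM to 15.1 and 15.3 CPM. The 4 that rose, Itgam, Adgre1, Ptprc and Csf1r, were at 0 counts in both shCtrl libraries. They passed the filter on counts through shUSP9X alone and could only be called higher. Their count is therefore not comparable with the share over all genes. Cd68 was tested and did not pass (0.37, and 0.04 with the offset, edgeR adjusted p = 0.125 without it). Cd3e had 0 counts in every library. Lyz2 had at most 2 counts in any library, Cd52 at most 4 and Cd79a at most 4. Of 5 endothelial markers 2 were tested and Tek fell, with sums of 10.7 and 11.7 CPM against 6.88 and 7.18 CPM. The part of these markers in the values of the 10 genes was not tested.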

How the data were processed

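Per the labels, polyadenylated RNA of 4 ID8 libraries was sequenced, and the submitters' processing notes name fastp 0.18.0, Bowtie2 2.2.8, HISAT2, StringTie 1.3.1 and RSEM. The study's methods give GRCm38 and a cutoff of p under 0.05 and fold change above 1.5, with DESeq2. The authors deposited estimated counts per gene, not normalized, and FPKM values, scaled for length and library size. In each library 6.4% to 6.69% of counts were not whole. The test had been planned for whole counts, so they were rounded. Counting by strand is not stated.

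Samples were grouped by their labels. Genes were filtered with filterByExpr (minimum count 10, minimum total 15), and 11448 of 22063 remained. edgeR 4.0.16 in R 4.3.3 gave TMM scaling and a two-sided quasi-likelihood F test without a replicate block. Standard errors are of the log2 fold change, and intervals are 95%. Shares, floors and intervals cover counting error and the spread of these libraries only. Replicates differed by more than counting noise (chi-square per gene 3.35 in shCtrl and 2.23 in shUSP9X). Gene positions, GC content and length came from GENCODE M21 (GRCm38), and the offset was a loess fit (span 0.3) of each library's log ratio on GC content and length. The fits were run on simulated data. The simulated trend for the offset followed GC content only, so the length part of the offset was not tested.

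The members and gene lists were chosen with earlier results of these data known. Named are the 10 genes, Usp9x, from each list the called genes with the 3 largest log2 fold changes, and list genes that act at the same step as a member. Alternatives were DESeq2 1.42.0, other scalings and filters, limma 3.58.1 on log2 FPKM with a pseudocount of 1 or 0.1 (mean FPKM 1 or more), the replicate block, GC content and length offsets, and each library left out.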

Additional observations from a re-analysis of the deposited data

How the results depend on the processing

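Id1, Id2, Id3, Klf4, Myc and Lif stayed called on the same side in all 17 alternatives, the highest adjusted p being 0.0042 (Lif, limma on FPKM). Lifr and Il6st turned sign with the GC content and length offset (0.51 and 0.49), with the replicate block added to it (0.51 and 0.49) and with the FPKM-implied length (0.0171 and 0.21), an alternative chosen after seeing the data, as was the offset on GC content alone. Of the list genes, the same 3 fits gave 0.0184, 0.0179 and 0.25 for Bmpr2, 0.33, 0.33 and 0.45 for Bmpr1a, 0.42, 0.42 and 0.29 for Ptpn2 and 0.40, 0.40 and 0.54 for Smad5. The first 2 gave 0.0655 and 0.0644 for Tcf4, 0.0936 and 0.094 for Tcf12 and 0.41 and 0.41 for Nop58. The third gave 0.0636 for Acvr2a, -0.00256 for Stat3 and 0.00598 for Sox9. With GC content alone, Bmpr1a was 0.15, Ptpn2 0.61, Smad5 0.13, Dcn 0.0858 and Stat3 -0.0766. Sox9 ran from -0.144 without shCtrl replicate 1 to 0.0867 without shCtrl replicate 2. The cause of these changes was not tested.

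The count of the 10 genes higher at an adjusted p under 0.05 rose from 2 to 4 with the GC content and length offset, to 4 with the replicate block added and to 3 with the FPKM-implied length. Higher at p and fold, it was 1 in place of 2 with library size only, both limma fits, the GC content and length offset, that offset with the block, GC content alone and the FPKM-implied length, and 1 to 2 with a library left out. Lower at p and fold, it was 1 in place of 2 with both limma fits, 3 with the GC content and length offset, with or without the block, and with GC content alone, 4 with the FPKM-implied length, and 2 to 3 with a library left out. Lifr was not past this cutoff in any of the 4 fits with an offset. Over all genes, 3318 to 3652 were lower and 3423 to 3869 higher with a library left out, beside 3843 and 3864. Where a group was left with 1 library, it was assumed to vary like the other. No label says whether the replicate numbers pair the samples. The deviations of the libraries numbered 1 from their group means had a correlation of -0.045 across genes. This cannot show whether libraries of the same number were prepared together. The replicate block alone changed no call of the 10 genes. Among the lists, the fewest and most genes called over all alternatives were 1 and 4 (reported 4) for BMP Smads lower, 1 and 3 (reported 3) for BMP receptors lower, 0 and 2 (reported 2) for Id partners lower, 0 and 3 (reported 2) for JAK-STAT3 signaling higher, 2 and 4 (reported 4) for the Sox family lower, 2 and 6 (reported 6) for Myc target genes lower and 0 and 4 (reported 4) for leukocyte markers higher.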
